A study of Mus musculus with 21 samples.

Results

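The comparison set 3 arrays of neurons made from the Nkx2.2 line against 3 arrays of wild type neurons, both grown with retinoic acid (RA), a vitamin A derivative that gives neural cells a hindbrain and spinal cord position. Its members are all 18193 genes with a named probe set, each read by the one of its probe sets that varied most (by SD) on the 21 arrays of 7 groups, so all 18193 of 18193 genes took part. The Nkx2.2 RA group is the engineered mouse embryonic stem cell line NesE-Nkx2.2, labelled as caudal hindbrain serotonergic neurons, after 10 days with sonic hedgehog (SHH) and RA. NesE is the nestin enhancer, which is active in dividing neural progenitors and here drove Nkx2.2, a homeodomain factor of the ventral neural tube. The wild type RA group is an unmodified embryonic stem cell line, described as dorsal hindbrain neurons, after 8 days. The titles of those 3 samples name SHH and RA, while their source names give RA alone. Line, day and possibly SHH therefore cannot be told apart in this comparison. Other groups drawn on below are the Nkx2.2 line and wild type cells, both after 10 days, and an Olig2 line after 8 days. Their titles name SHH with the factor FGF8 for the first pair and SHH with RA for the Olig2 line. RNA came in every case from purified post-mitotic neurons, and the labels used here do not say how they were purified. Nothing in the labels tells whether the Nkx2.2 line is 1 clone.

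Serotonergic neurons of the hindbrain arise next to the floor plate from progenitors that make Nkx2.2. They turn tryptophan into serotonin with the hydroxylase Tph2 and the decarboxylase Ddc, load it into vesicles through Slc18a2, and take it back from the synapse through Slc6a4. Their position along the hindbrain is recorded by Hox genes, which RA turns on in anterior to posterior order. The dorsal hindbrain and spinal cord, by contrast, give rise to sensory relay and inhibitory interneurons marked by factors such as Lbx1, Lhx1 and Pou4f1.

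Each value is a log2 signal centred on the probe set's median, so it tells how an array differs from other arrays and not how high a gene is. Fold changes are differences of 3-array means in log2 units, Nkx2.2 RA minus wild type RA, ± their standard error. Adjusted p values are from limma with Benjamini-Hochberg adjustment over 18193 genes. A gene was called, and is said to rise or fall, at an adjusted p under 0.05 and a change of 1 or more. By this rule 1608 genes rose, which is 8.84% of those tested, and 1667 fell, which is 9.16%. Of the 3275 called genes, 3152 had no overlap between the arrays of the 2 groups. A call already asks for a large difference, so lack of overlap among called genes adds no support to the calls. Its share over all genes is not given here. A rise of 4 or more log2 units was seen for 68 genes and a fall of that size for 66, while the median change over all genes was 0.01. Several probe sets read 102 of the named genes that were called. All of them were called the same way for 35 of these genes, more than 1 but not all for 23, and only 1 for 44. Among these 44 were Ddc, Htr1a, Htr1b, Lmx1b, Sim1, Pax6, Pax8, Gad2 and Tac1.

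Replicate 3 stood apart in both groups. It correlated at 0.641 and 0.664 with replicates 1 and 2 of the Nkx2.2 RA group, which correlated at 0.89 with each other. In the wild type RA group replicates 1 and 2 correlated at 0.746, and replicate 3 at 0.564 and 0.676 with them. Labelling controls were also lowest on replicate 3, at 1.76, 1.80 and 0.21 on the Nkx2.2 RA arrays and at 0.63, 0.70 and -0.67 on the wild type RA arrays. The difference between 3′ and 5′ probe sets of Actb, a sign of RNA integrity, was 0.48, 0.25 and 0.02 on the Nkx2.2 RA arrays and -0.01, -0.06 and -0.20 on the wild type RA arrays. That of Gapdh was -0.06, -0.16 and -0.03 in the Nkx2.2 RA group and 0.21, 0.19 and -0.01 in the wild type RA group. Without replicate 3 of both groups 1708 genes rose and 1764 fell, of which 1309 and 1447 were among those called with all arrays. Wild type RA replicate 1 differed as well. Among genes on which the other 2 arrays of its group were close, 35 lay over 3 units below them. On wild type RA replicate 3 the same measure gave 69 genes above. Leaving out wild type RA replicate 1 alone gave 1303 rises and 1557 falls. A count is followed by that without replicate 3 of both groups where it differs. The part of these array differences in the results was not tested.

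Genes of the serotonin system were higher in the Nkx2.2 line. The 3 markers of serotonergic neurons, Ddc, Slc6a4 and Tph2, all rose by over 7 log2 units, which matches the label of the group. Of the 3 synthesis genes tested, 2 rose, as did 5 of 6 genes of the tetrahydrobiopterin cofactor, 2 of 4 of packing and uptake, and 2 of 3 of monoamine breakdown. No member of the synthesis, cofactor and breakdown lists fell. In bulk samples such as these, more cells of a type and more RNA per cell cannot be told apart.

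Tph2, the rate-limiting enzyme of serotonin synthesis in neurons, read 4.32, 4.62 and 4.36 on the Nkx2.2 RA arrays, against -2.52, -1.97 and -3.26 on the wild type RA arrays (log2 fold change 7.02 ± 1.05, adjusted p = 1.46e-04). Its lowest Nkx2.2 RA array lay more than 6 units above its highest wild type RA array. Ddc, which makes serotonin from its direct precursor, read 2.18, 2.26 and 1.5 on the Nkx2.2 RA arrays, against -4.61, -4.78 and -6.50 on the wild type RA arrays (log2 fold change 7.27 ± 0.67, adjusted p = 2.58e-06). A further Ddc probe set changed by only 0.02. Slc6a4, the serotonin transporter, read 6.31, 6.67 and 6.33 on the Nkx2.2 RA arrays, against 0.00, -0.04 and -2.0 on the wild type RA arrays (log2 fold change 7.12 ± 1.22, adjusted p = 4.28e-04). The groups were far apart, and wild type RA replicate 3 was lowest for all 3 markers. Tph1, the hydroxylase of gut and pineal gland, read 0.01, -0.01 and -0.01 on the Nkx2.2 RA arrays, against -0.03, -0.04 and -0.04 on the wild type RA arrays, and was not called.

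The cofactor genes moved with them. Gch1, which carries out the first step of tetrahydrobiopterin synthesis, read 5.45, 5.51 and 4.86 on the Nkx2.2 RA arrays, against -1.45, -1.69 and -2.31 on the wild type RA arrays (log2 fold change 7.09 ± 0.65, adjusted p = 2.34e-06). Gchfr, which holds that enzyme in check, read 6.66, 6.66 and 5.71 on the Nkx2.2 RA arrays, against 0.00, -0.42 and -0.73 on the wild type RA arrays (log2 fold change 6.73 ± 0.79, adjusted p = 2.04e-05). These 2 changes, on both sides of the same enzyme, were close in size. Smaller rises were seen for Pcbd1 (2.35), Pts (1.30) and Qdpr (1.26), of which Pcbd1 and Qdpr regenerate the cofactor. Spr, the reductase of the last synthesis step, read -2.45, -0.94 and 0.24 on the Nkx2.2 RA arrays, against -0.68, -0.30 and 0.16 on the wild type RA arrays. Its arrays overlapped, and it was not called (log2 fold change -0.77 ± 0.64).

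Slc18a2, the vesicular monoamine transporter of neurons, read 4.11, 4.22 and 4.13 on the Nkx2.2 RA arrays, against -1.72, -1.45 and -1.26 on the wild type RA arrays (log2 fold change 5.63 ± 0.33, adjusted p = 2.38e-08). Slc18a1, its counterpart in endocrine cells, was near 0 on every array and was not called (0.03). Slc29a4, a low-affinity monoamine transporter, went the other way, at -1.99, -1.90 and -1.23 on the Nkx2.2 RA arrays, against 1.34, 1.04 and 1.12 on the wild type RA arrays (log2 fold change -2.87 ± 0.35, adjusted p = 2.99e-05). Breakdown enzymes rose: Maob read 6.52, 6.52 and 6.03 on the Nkx2.2 RA arrays, against -0.05, -0.04 and 0.00 on the wild type RA arrays (log2 fold change 6.39 ± 0.34, adjusted p = 7.00e-09), and Maoa 1.66, 3.12 and 2.63 on the Nkx2.2 RA arrays, against -3.45, -3.01 and -1.16 on the wild type RA arrays (log2 fold change 5.01 ± 0.68, adjusted p = 6.84e-05). Aldh2, which acts after them, was not called (0.10).

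Among 13 serotonin receptors, 2 rose and 2 fell (1 without replicate 3 of both groups). The risers were the autoreceptors of serotonergic neurons. Htr1b read 4.46, 4.68 and 3.54 on the Nkx2.2 RA arrays, against 0.00, -0.59 and 0.36 on the wild type RA arrays (log2 fold change 4.30 ± 0.45, adjusted p = 6.95e-06), and Htr1a 2.88, 3.15 and 1.92 on the Nkx2.2 RA arrays, against -0.42, -0.42 and -0.97 on the wild type RA arrays (log2 fold change 3.25 ± 0.31, adjusted p = 4.09e-06). Both were lowest on replicate 3 within the Nkx2.2 RA group. Htr2c fell, at -0.01, -0.02 and -0.09 on the Nkx2.2 RA arrays, against 3.23, 1.74 and 1.85 on the wild type RA arrays (log2 fold change -2.31 ± 0.39, adjusted p = 3.91e-04). Htr7 read 0.05, -0.13 and -0.18 on the Nkx2.2 RA arrays, against 1.17, 0.54 and 2.91 on the wild type RA arrays (log2 fold change -1.63 ± 0.38). That fall rested on wild type RA replicate 3, without which the change was -0.94 and under the size set for a call. The other 9 receptors changed by 0.29 or less and were not called.

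**Figure D1:**
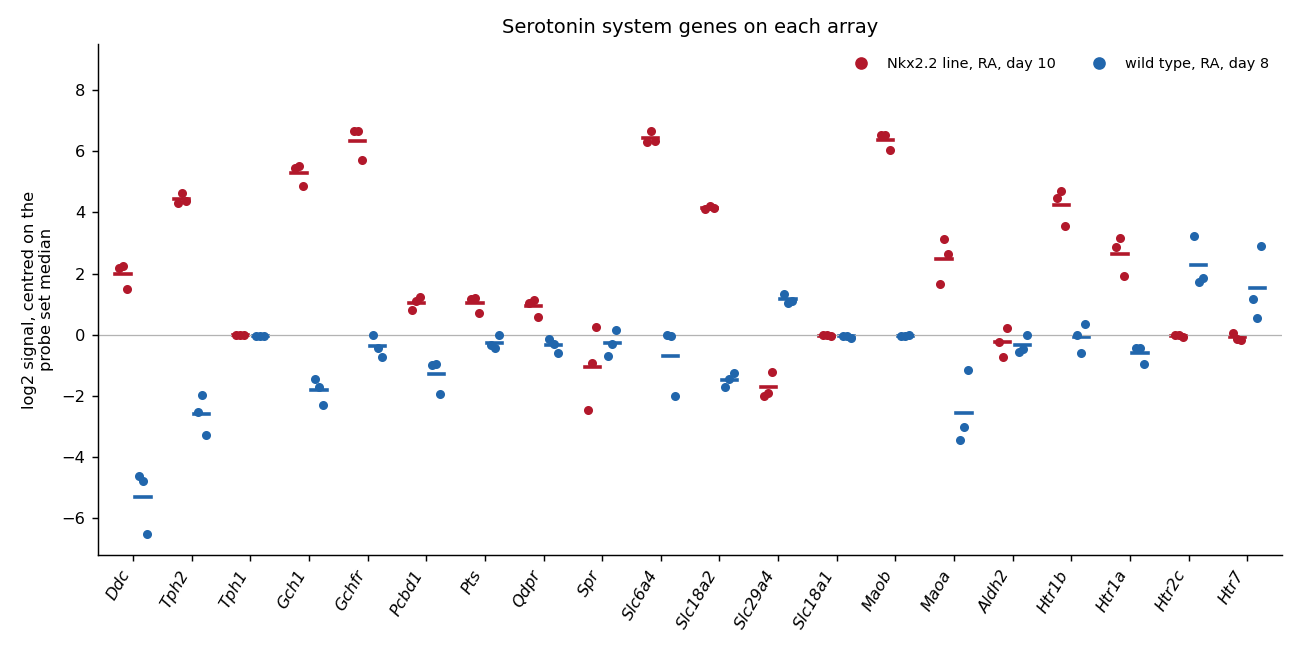
Centred log2 signal (vertical axis) of 20 serotonin system genes on each array, with red points for the 3 Nkx2.2 RA arrays, blue points for the 3 wild type RA arrays and a bar at each mean. Ddc, Tph2, Gch1, Gchfr, Slc6a4, Slc18a2 and Maob are apart by 5.63 to 7.27 log2 units, while Tph1, Spr, Slc18a1 and Aldh2 overlap or nearly touch.

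The promoters of 4 of these genes are shown because these genes, of the enzyme, cofactor and transporter steps, were among those that rose most. The sequences are RefSeq's, from GRCm38.p6, and run from 250 bases before to 50 after the start of the gene, on the strand of the gene. They lie at chr10:115184973-115185272, minus strand (Tph2), chr11:76998347-76998646, plus strand (Slc6a4), chr19:59260628-59260927, plus strand (Slc18a2) and chr14:47189364-47189663, minus strand (Gch1). Capitals mark AGATAA or its reverse complement TTATCT, a motif of GATA factors.
Tph2: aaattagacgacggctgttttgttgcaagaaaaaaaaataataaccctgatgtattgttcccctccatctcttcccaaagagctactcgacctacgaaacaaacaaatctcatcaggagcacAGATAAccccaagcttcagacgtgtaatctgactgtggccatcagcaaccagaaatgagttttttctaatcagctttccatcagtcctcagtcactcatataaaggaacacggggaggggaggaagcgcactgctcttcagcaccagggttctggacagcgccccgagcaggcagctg
Slc6a4: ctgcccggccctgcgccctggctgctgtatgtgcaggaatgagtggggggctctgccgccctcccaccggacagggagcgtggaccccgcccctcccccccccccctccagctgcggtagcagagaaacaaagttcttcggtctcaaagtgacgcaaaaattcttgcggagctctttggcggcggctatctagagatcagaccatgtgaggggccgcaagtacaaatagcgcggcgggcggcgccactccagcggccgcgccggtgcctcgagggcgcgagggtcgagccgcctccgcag
Slc18a2: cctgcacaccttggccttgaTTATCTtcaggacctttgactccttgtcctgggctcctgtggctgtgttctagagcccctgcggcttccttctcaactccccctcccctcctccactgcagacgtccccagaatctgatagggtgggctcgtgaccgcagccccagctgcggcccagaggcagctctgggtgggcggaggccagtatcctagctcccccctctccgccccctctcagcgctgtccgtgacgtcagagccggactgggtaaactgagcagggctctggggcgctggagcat
Gch1: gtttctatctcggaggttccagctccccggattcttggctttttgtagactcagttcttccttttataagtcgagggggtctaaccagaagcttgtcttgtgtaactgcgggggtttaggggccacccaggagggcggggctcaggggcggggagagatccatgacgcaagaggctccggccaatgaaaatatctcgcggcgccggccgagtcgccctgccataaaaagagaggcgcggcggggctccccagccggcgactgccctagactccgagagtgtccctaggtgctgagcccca

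The GATA letters start at position -128 in Tph2 and -230 in Slc18a2, and have no match in the windows of Slc6a4 and Gch1. Of 12 promoters of serotonin genes that rose, 3 held the motif (Tph2, Pcbd1 and Slc18a2), against 8.13% of 14452 promoters of genes tested. That set leaves out the serotonergic transcription factors, and Slc29a4, Htr2c and Htr7, which fell. The motif was in 6.02% of the promoters of genes that rose and 4.84% of those that fell. CGGAAG, a motif of ETS factors such as the serotonergic regulator Fev, was in 2 of the 12 (Pts and Htr1b) and in 24.8% of all. CAAGTG, bound by NK2 factors such as Nkx2.2, was in 1 (Maoa) and in 11.9% of all. TGTTTAC, a motif of Fox factors, was in 0 of the 12 and in 2.82% of all. Both strands were searched, and none of these motifs is contained in another.

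Factors of the serotonergic lineage moved in both directions. Of 8 tested, 5 rose and 2 fell, with 3 rising without replicate 3 of both groups. Nkx2-2, the factor driven in this line, read 1.60, 1.85 and 1.46 on the Nkx2.2 RA arrays, against -1.19, -0.80 and -0.92 on the wild type RA arrays (log2 fold change 2.61 ± 0.42, adjusted p = 2.77e-04). Whether its probe set reads the driven copy, the cell's own copy or both is not known here. Insm1, a zinc finger factor of monoaminergic precursors, rose by 1.36 ± 0.35, and Foxa2, a forkhead factor of the floor plate, by 1.94 ± 0.51. Without Nkx2.2 RA replicate 3 the adjusted p of Foxa2 was 0.0514, and without wild type RA replicate 1 it was 0.0599.

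Lmx1b, a LIM homeodomain factor needed in serotonergic neurons, read 0.50, 0.93 and 1.27 on the Nkx2.2 RA arrays, against -0.50, -0.54 and -0.69 on the wild type RA arrays (log2 fold change 1.48 ± 0.49, adjusted p = 0.0328). The groups did not overlap, but the call was lost on leaving out any array except Nkx2.2 RA replicate 1, with an adjusted p of up to 0.105, and was 0.188 without replicate 3 of both groups. Gata2 read 2.70, 3.21 and 2.63 on the Nkx2.2 RA arrays, against 1.35, 1.65 and 0.38 on the wild type RA arrays (log2 fold change 1.72 ± 0.54, adjusted p = 0.0257), and its adjusted p was 0.134 without replicate 3 of both groups. Leaving out Nkx2.2 RA replicate 1 or 2, or wild type RA replicate 3, also ended that call, at adjusted p values of 0.0521, 0.0905 and 0.113. Gata3, its paralog in serotonergic neurons of the caudal hindbrain, read 3.37, 3.29 and 2.70 on the Nkx2.2 RA arrays, against 2.97, 2.68 and 1.84 on the wild type RA arrays and was not called (log2 fold change 0.62 ± 0.65, adjusted p = 0.658). Both GATA genes were thus above their median on all 6 arrays. En1 and En2, factors of the midbrain and anterior hindbrain, fell by 1.81 and 1.58.

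Of 10 ventral progenitor factors 7 rose and none fell (5 rose with only the 6 arrays compared). Sim1, a factor of V3 interneurons that share the Nkx2.2 domain, read 3.48, 3.82 and 3.20 on the Nkx2.2 RA arrays, against -1.51, -1.41 and -1.56 on the wild type RA arrays (log2 fold change 5.0 ± 0.72, adjusted p = 1.07e-04). Ferd3l, a factor of the floor plate region, read 3.38, 3.88 and 4.82 on the Nkx2.2 RA arrays, against -0.84, -0.62 and 0.71 on the wild type RA arrays (log2 fold change 4.28 ± 0.58, adjusted p = 6.71e-05). Foxa1 rose by 2.85 ± 0.45, Nkx6-1 by 2.51 ± 0.42 and Shh itself, the signal of the floor plate, by 3.48 ± 0.75. Shh was uneven in wild type cells, at -2.95, -2.30 and 0.49, of which only replicate 3 came near the Nkx2.2 RA arrays at 1.11, 1.83 and 2.75. Its adjusted p was 0.0973 with only the 6 arrays compared. Nkx2-9, Nkx6-2 and Olig2 were not called (log2 fold changes -0.01, -0.31 and 0.31).

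Factors of dorsal and intermediate interneurons were lower in the Nkx2.2 line. Of 17 factors tested 11 fell and none rose, with a median change of -3.10 against 0.01 over all genes. Lbx1, which specifies dorsal interneurons of the spinal cord and hindbrain, read -0.01, -0.03 and -0.04 on the Nkx2.2 RA arrays, against 7.45, 6.92 and 7.05 on the wild type RA arrays (log2 fold change -7.17 ± 0.34, adjusted p = 2.84e-09). Lhx1, a LIM factor of inhibitory interneurons, read -3.94, -3.96 and -4.06 on the Nkx2.2 RA arrays, against 4.68, 4.52 and 4.0 on the wild type RA arrays (log2 fold change -8.39 ± 0.64, adjusted p = 3.84e-07). Its SD was small in both groups, and they lay more than 7 units apart. Pou4f1 changed by -6.51 ± 0.53, Pax8 by -6.05 ± 0.32, Lhx5 by -5.41 ± 0.54, Tlx3 by -4.96 ± 0.65 and Prrxl1 by -4.19 ± 0.29, all factors of sensory relay or inhibitory neurons. The 6 factors not called, among them Lhx2, Lhx9, Barhl1 and Barhl2 of the most dorsal neurons, changed by 0.09 or less.

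Skor1, a corepressor that works with Lbx1, read -1.33, -1.35 and -1.37 on the Nkx2.2 RA arrays, against 7.69, 6.75 and 7.10 on the wild type RA arrays (log2 fold change -8.53 ± 0.52, adjusted p = 2.92e-08). One other probe set of Skor1 changed by 0.02. Mab21l1 and Mab21l2 changed by -7.03 and -8.04, and Gbx2, a factor of the anterior hindbrain, by -7.09. Gbx2 read -1.36, -1.38 and -1.38 on the Nkx2.2 RA arrays, against 5.98, 5.50 and 5.66 on the wild type RA arrays, with little spread within either group. Among 18 dorsal progenitor and proneural factors 5 fell (4 without replicate 3 of both groups) and 1 rose. Zic1, a dorsal zinc finger factor, read -1.53, -1.54 and -1.01 on the Nkx2.2 RA arrays, against 5.74, 5.06 and 6.81 on the wild type RA arrays (log2 fold change -7.23 ± 1.37, adjusted p = 9.46e-04). Pax6 fell by 4.49, Irx3 by 3.41 and Neurog2 by 2.56. Olig3, a progenitor factor of dorsal and ventral domains, rose, with an uneven 4.86, 3.20 and 0.77 on the Nkx2.2 RA arrays and -0.05, -0.04 and 0.48 on the wild type RA arrays (log2 fold change 2.81 ± 0.72, adjusted p = 0.00792). Its adjusted p was 0.173 with only the 6 arrays compared. Atoh1, Ptf1a, Pax3 and Pax7 were not called, with changes of -0.38 to 0.01.

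Ventral interneuron factors were mixed: 5 of 11 fell and 2 rose (1 without replicate 3 of both groups). Evx1, of V0 interneurons, read -0.02, -0.04 and -0.05 on the Nkx2.2 RA arrays, against 4.37, 3.39 and 2.54 on the wild type RA arrays (log2 fold change -3.47 ± 0.29, adjusted p = 1.04e-06), and Lhx3, of V2a interneurons and motor neurons, -0.03, -0.04 and -0.05 on the Nkx2.2 RA arrays, against 5.23, 5.07 and 4.61 on the wild type RA arrays (log2 fold change -5.01 ± 0.11, adjusted p = 1.52e-13). Both were at their medians on every Nkx2.2 RA array. The error behind these values is shared by all 7 groups. With only the 6 arrays compared the adjusted p was 0.0132 for Evx1 and 7.58e-04 for Lhx3. Tal1, of V2b interneurons, where it works with Gata2, fell by 3.10 while Gata2 rose. Sim1 was the other riser.

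Motor neuron genes also fell. Of 8 somatic motor neuron factors 5 fell (4 without replicate 3 of both groups) and 2 rose. Lhx4 fell by 3.57. Isl1 fell by 1.85 but was far under its median in both groups. It read -6.84, -7.04 and -6.01 on the Nkx2.2 RA arrays, against -4.90, -4.44 and -5.01 on the wild type RA arrays. In the Olig2 line under RA it averaged 0.61. Aldh1a2, the RA-making enzyme of limb motor neurons, fell by 3.14. It was an uneven 1.49, 4.61 and 2.42 on the wild type RA arrays, and its adjusted p was 0.0737 with only the 6 arrays compared. The risers were Olig1, at 3.46, 3.44 and 1.33 on the Nkx2.2 RA arrays, against -0.03, -0.03 and -0.01 on the wild type RA arrays (log2 fold change 2.77 ± 0.45, adjusted p = 2.68e-04), and Foxp1 (2.57 ± 0.56). Of 10 factors of visceral motor and noradrenergic neurons 3 fell (4 without replicate 3 of both groups) and 1 rose. Of these 2 classes, visceral motor neurons share the Nkx2.2 domain with serotonergic neurons earlier in development. Tfap2b, of noradrenergic and dorsal neurons, read -0.11, -0.13 and -0.15 on the Nkx2.2 RA arrays, against 7.21, 6.61 and 6.38 on the wild type RA arrays (log2 fold change -6.86 ± 0.56, adjusted p = 7.34e-07), and Tbx3 fell by 3.34. The call of Tbx3 was lost with only the 6 arrays compared (adjusted p = 0.0731). Phox2a, the marker of visceral motor neurons on this list, was not called (log2 fold change -1.15 ± 0.43). Of 6 cholinergic genes Slc18a3 and Ache were called lower, by 2.11 and 1.54, and each call was lost on leaving out any of 4 arrays. Of 9 dopaminergic genes 3 fell (2 without replicate 3 of both groups), led by Lmx1a (-3.75) and Nr4a2 (-3.03), and Foxa1 rose. Lmx1a was uneven on the wild type RA arrays, at -0.89, 4.4 and 2.02, and its adjusted p was 0.156 with only the 6 arrays compared. Nr4a2 was called on 2 of its 6 probe sets. Th, the enzyme of dopamine synthesis, and the dopamine transporter Slc6a3 were not called (-0.34 and 0.01).

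The transmitter genes of inhibitory neurons fell with the interneuron factors. Of 6 GABA and glycine genes 4 fell and none rose, with a median change of -4.01. Slc32a1, which loads both transmitters into vesicles, read -0.41, -0.25 and -0.29 on the Nkx2.2 RA arrays, against 5.66, 4.70 and 4.60 on the wild type RA arrays (log2 fold change -5.30 ± 0.69, adjusted p = 4.72e-05). Slc6a5, the glycine transporter of glycinergic neurons, read 0.00, -0.03 and -0.05 on the Nkx2.2 RA arrays, against 6.11, 5.23 and 4.73 on the wild type RA arrays (log2 fold change -5.38 ± 0.42, adjusted p = 5.32e-07). Gad1 and Gad2, which make GABA, fell by 4.78 and 3.23. On other probe sets of Slc32a1 and Slc6a5 the change was as small as 0.02 and 0.00, so these calls rest on the probe set that varied most. Of 5 glutamate genes only Slc1a2, a transporter of astrocytes, fell (-3.09). Slc17a6, the vesicular glutamate transporter of hindbrain neurons, read -1.31, -1.19 and -2.18 on the Nkx2.2 RA arrays, against 0.30, 0.23 and 1.13 on the wild type RA arrays, without overlap but short of a call (log2 fold change -2.11 ± 0.82, adjusted p = 0.0728).

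Neuropeptide precursors split evenly, with 4 of 23 higher (3 without replicate 3 of both groups) and 4 lower. Sst, the precursor of somatostatin, had one of the largest falls of all, at -4.62, -4.81 and -4.85 on the Nkx2.2 RA arrays, against 4.51, 3.67 and 3.39 on the wild type RA arrays (log2 fold change -8.62 ± 0.43, adjusted p = 4.81e-09). Npy read -0.44, -0.67 and -0.66 on the Nkx2.2 RA arrays, against 4.91, 3.25 and 3.99 on the wild type RA arrays (log2 fold change -4.65 ± 0.52, adjusted p = 1.49e-05), and Pnoc, the precursor of nociceptin, fell by 4.29. Tac1, the substance P precursor of many serotonergic neurons of the medulla, was above its median on all 6 arrays, at 5.85, 4.64 and 2.73 on the Nkx2.2 RA arrays, against 6.89, 6.76 and 8.34 on the wild type RA arrays (log2 fold change -2.92 ± 0.66, adjusted p = 0.00349). The Tac1 fall rested in part on replicate 3, as its adjusted p was 0.0537 without replicate 3 of both groups. The genes that rose were the cerebellins Cbln4 (2.61) and Cbln1 (2.47), and the peptide precursors Pdyn (1.92) and Adcyap1 (1.60). Trh, a peptide of medullary serotonergic neurons, was not called (0.13).

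**Figure D2:**
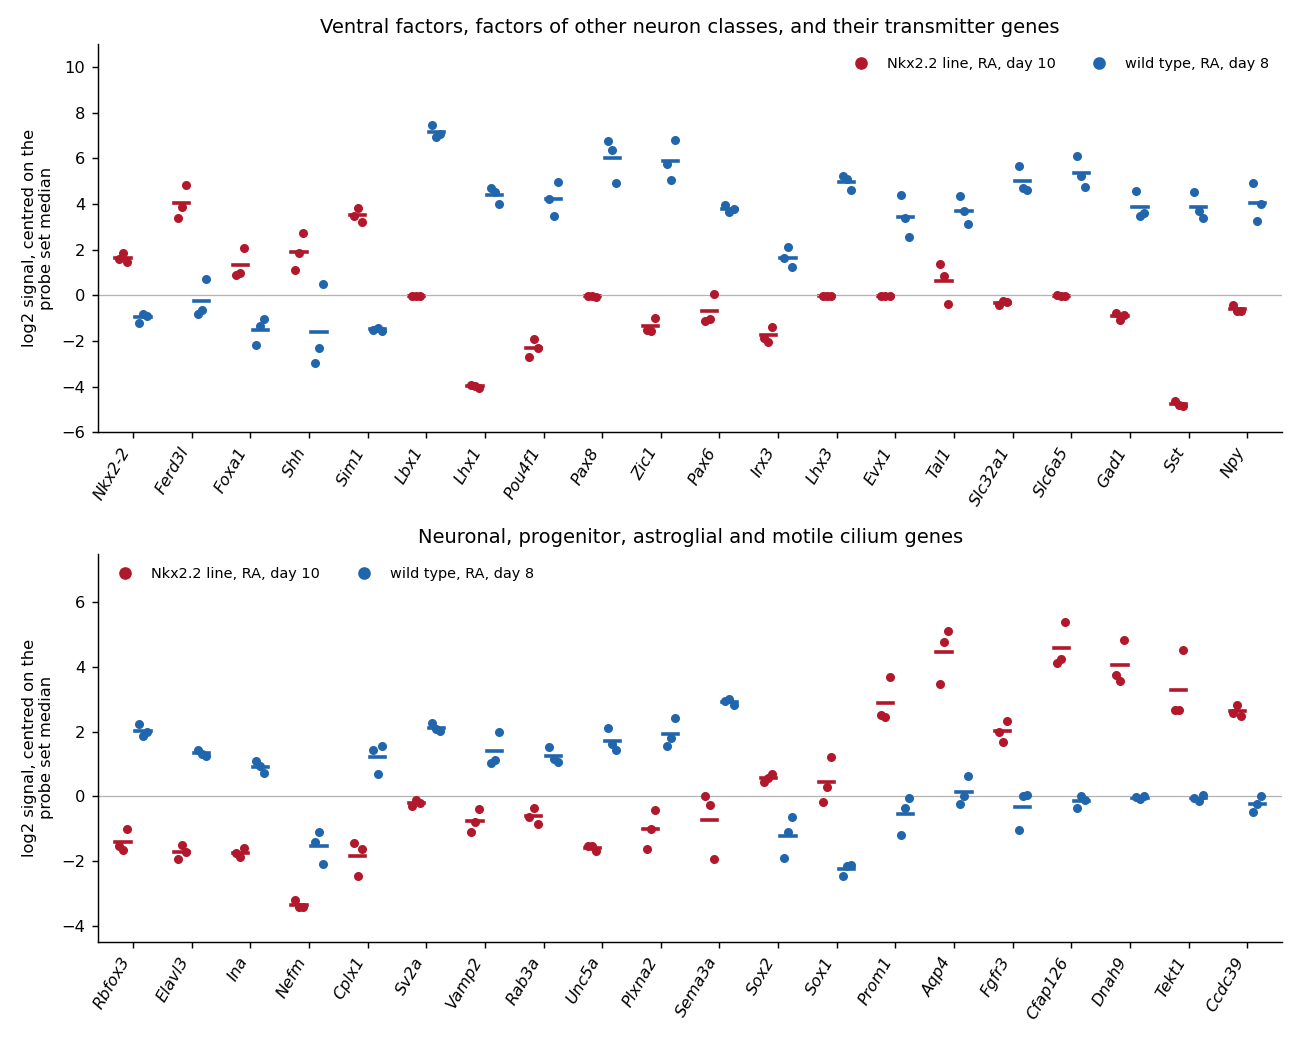
Centred log2 signal (vertical axes) on each array of genes grouped in 2 panels, with red points for the 3 Nkx2.2 RA arrays, blue points for the 3 wild type RA arrays and a bar at each mean. In the upper panel the ventral factors Nkx2-2 to Sim1 lie higher in the Nkx2.2 line and Lbx1 to Npy lie lower. In the lower panel Rbfox3 to Sema3a lie lower and Sox2 to Ccdc39 lie higher. Both panels hold chosen genes. The lower panel leaves out members of the same lists that were not called. It also leaves out members called the other way, such as Pax6 (-4.49), Slc1a2 (-3.09) and Ntn1 (3.32).

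Many Hox genes were lower in the Nkx2.2 line. Of 33 tested, 18 fell and none rose. By paralog group the falls were 3 of 7 genes in groups 1 to 3, 14 of 16 in groups 4 to 9 and 1 of 10 in groups 10 to 13, with median changes of -1.87, -3.60 and -0.01. In lists of groups 4 and 5 and of groups 6 to 13 the counts were 6 of 6 and 9 of 20, and 5 and 7 without replicate 3 of both groups. With only the 6 arrays compared they were 4 and 5, while the count in groups 1 to 3 went from 3 to 5 of 7. Hoxb2 (-1.87 ± 1.15) and Hoxb3 (-1.82 ± 1.08) were not called, though every Nkx2.2 RA array lay under every wild type RA array. The larger number of calls in groups 4 to 9 thus depends in part on the shared error.

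The genes of groups 4 and 5 were lower in the Nkx2.2 line, though mostly above their medians. Hoxb5 read 6.06, 4.97 and 2.54 on the Nkx2.2 RA arrays, against 9.81, 9.28 and 9.64 on the wild type RA arrays (log2 fold change -5.05 ± 0.68, adjusted p = 6.16e-05), and Hoxb4 4.92, 4.09 and 4.06 on the Nkx2.2 RA arrays, against 7.01, 6.20 and 5.67 on the wild type RA arrays (log2 fold change -1.94 ± 0.30). Hoxa5 and Hoxc5 read 3.19, 2.42 and 0.00, and 5.08, 4.19 and 0.22, on the Nkx2.2 RA arrays, against 7.63, 6.76 and 7.60, and 7.63, 7.0 and 7.02, on the wild type RA arrays. Nkx2.2 RA replicate 3 was the lowest of its group for these 4 genes. Hoxc5 was not called with only the 6 arrays compared (adjusted p = 0.127). The mean over the 6 genes of groups 4 and 5 was 3.90, 3.14 and 1.83 on the Nkx2.2 RA arrays, against 7.58, 6.80 and 7.09 on the wild type RA arrays.

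Some genes that fell were within 1 unit of their medians on at least 2 of the 3 Nkx2.2 RA arrays, Hoxd3, Hoxa4 and Hoxb9 among them. Hoxd3 read 0.00, -0.08 and -0.09 on the Nkx2.2 RA arrays, against 7.41, 6.09 and 6.46 on the wild type RA arrays (log2 fold change -6.71 ± 0.29, adjusted p = 1.03e-09), Hoxa4 0.23, -0.03 and 2.27 on the Nkx2.2 RA arrays, against 7.72, 6.49 and 7.59 on the wild type RA arrays (log2 fold change -6.44 ± 0.44, adjusted p = 1.22e-07), and Hoxb9 0.97, -0.12 and -0.13 on the Nkx2.2 RA arrays, against 7.12, 7.38 and 8.32 on the wild type RA arrays (log2 fold change -7.37 ± 0.56, adjusted p = 3.51e-07). In the Olig2 line, also under RA and also sampled at day 8, the same 3 genes averaged 5.21, 5.97 and 8.10. More posterior genes were uneven in wild type cells, where replicate 1 was low: Hoxa10 read -0.04, 0.51 and -0.12 on the Nkx2.2 RA arrays, against 2.03, 5.25 and 5.50 on the wild type RA arrays (log2 fold change -4.14 ± 0.60, adjusted p = 1.12e-04), Hoxc8 0.00, -0.29 and -0.15 on the Nkx2.2 RA arrays, against 3.21, 6.12 and 6.49 on the wild type RA arrays, and Hoxc9 -0.10, -0.12 and -0.12 on the Nkx2.2 RA arrays, against 0.24, 3.71 and 4.23 on the wild type RA arrays. The call of Hoxa10 was lost with only the 6 arrays compared (adjusted p = 0.06). Hoxb1 and Hoxd1 were at their medians on all 6 arrays.

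**Figure D3:**
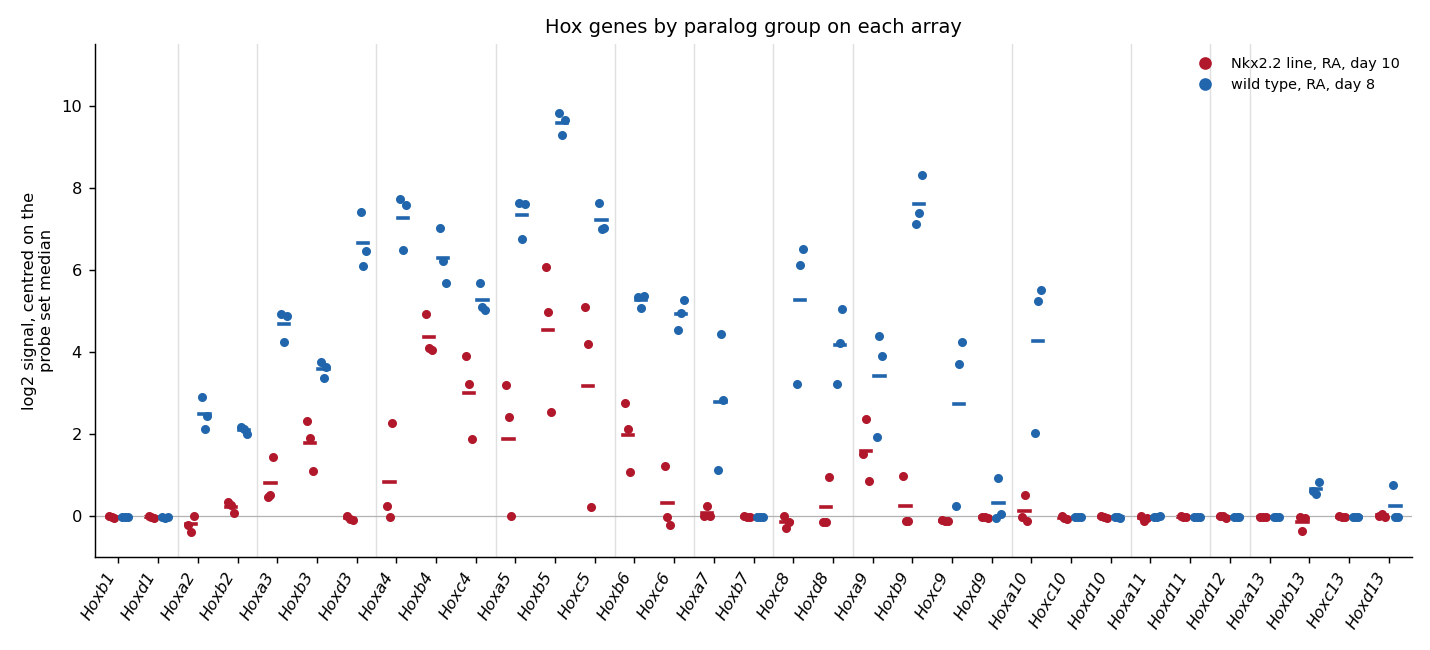
Centred log2 signal (vertical axis) of the 33 Hox genes tested, ordered by paralog group from 1 to 13 (grey lines divide the groups), with red points for the 3 Nkx2.2 RA arrays, blue points for the 3 wild type RA arrays and a bar at each mean. All 6 genes of groups 4 and 5 lie lower in the Nkx2.2 line, and the genes of groups 10 to 13 other than Hoxa10 lie within 1 unit of 0 on all arrays shown.

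RA pathway genes fell as well, 5 of 13 (4 without replicate 3 of both groups, 3 with only the 6 arrays compared), with none higher. Rarb, the RA receptor gene that RA itself turns on, read 0.53, -0.21 and -3.14 on the Nkx2.2 RA arrays, against 3.72, 2.73 and 3.56 on the wild type RA arrays (log2 fold change -4.28 ± 0.74, adjusted p = 4.62e-04). Its call was lost with only the 6 arrays compared (adjusted p = 0.0585). Crabp2 and Crabp1, which carry RA within the cell, fell by 4.80 and 3.58, Rara, a further receptor, by 2.24, and Stra6, a retinol uptake receptor, by 1.62. Cyp26a1 and Cyp26b1, which degrade RA and respond to it quickly, were not called (0.06 and -0.20).

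Of 4 hedgehog target genes only Shh rose. Ptch1, a direct target, read -0.33, -0.44 and -0.08 on the Nkx2.2 RA arrays, against -0.70, -0.30 and 0.77 on the wild type RA arrays, with overlap between the groups (log2 fold change -0.21 ± 0.42, adjusted p = 0.956). Gli1, the other standard target, was at its median on the Nkx2.2 RA arrays and read -0.03, 3.75 and 0.83 on the wild type RA arrays, where replicate 2 alone was high. It was not called (adjusted p = 0.0756). Genes that the pathway usually lowers were called lower in 4 of 5 cases, namely Gas1 (-3.96), Gli2 (-3.47), Gli3 (-2.92) and Boc (-2.13). Without replicate 3 of both groups Gas1 was still called, while Gli2, Gli3 and Boc kept changes of -3.30, -3.06 and -1.94 with adjusted p values of 0.0671, 0.0908 and 0.154. Wild type RA replicate 1 was the lowest of its group for all 4, and for Boc it read 0.26 against 2.94 and 2.37.

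The lists of FGF response, BMP and TGF-beta, Wnt and Notch genes had 1 of 10, 4 of 20, 0 of 23 and 4 of 13 members lower and 0, 1, 2 and 2 higher. Without replicate 3 of both groups 3, 1 and 4 of the BMP, Wnt and Notch genes were lower and 1, 1 and 1 higher. Smad7, a TGF-beta inhibitor, fell by 2.03, Tgfb3, a ligand, by 3.17, and Spry1, an FGF feedback inhibitor, by 2.62. Dkk3, a secreted relative of Wnt inhibitors, read 1.17, 1.21 and 2.10 on the Nkx2.2 RA arrays, against -4.31, -1.09 and 0.35 on the wild type RA arrays (log2 fold change 3.18 ± 0.86, adjusted p = 0.011), and wild type RA replicate 3 lay nearest to the Nkx2.2 RA arrays. Neither Dkk3 nor Tgfb3 was called with only the 6 arrays compared (adjusted p = 0.188 and 0.0768). Hmga2, a chromatin protein of early progenitors, read -2.83, -2.59 and -2.52 on the Nkx2.2 RA arrays, against 0.87, 4.38 and 2.92 on the wild type RA arrays (log2 fold change -5.37 ± 1.39, adjusted p = 0.00854), the 1 call among 11 genes of developmental timing (2 without replicate 3 of both groups).

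**Figure D4:**
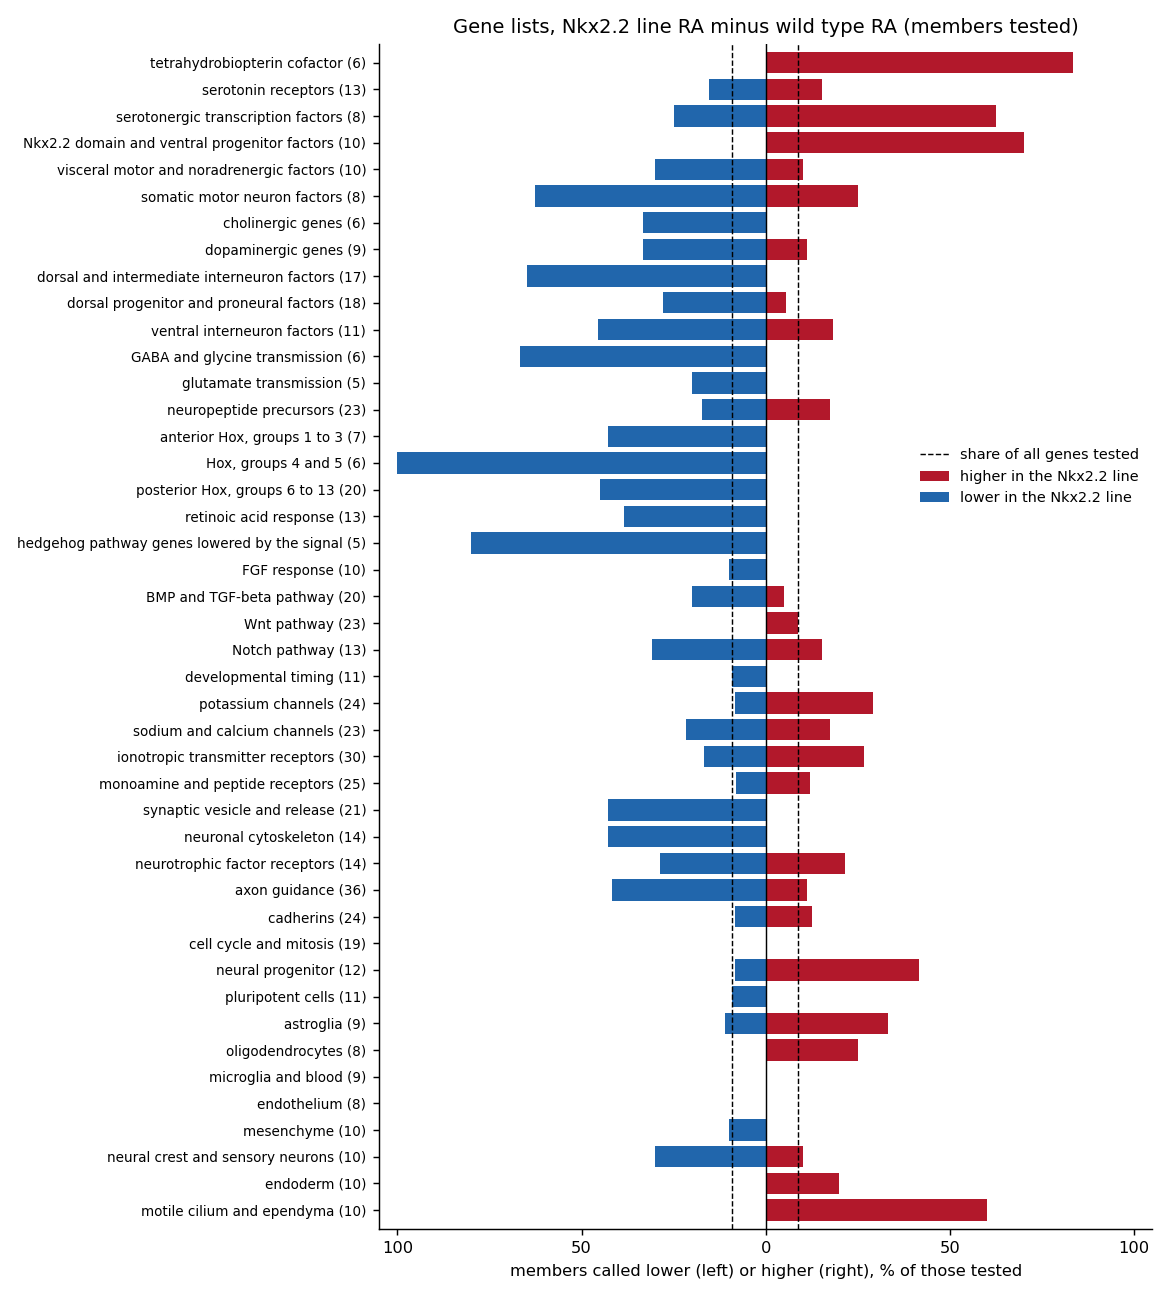
Share of members called higher (red, to the right) or lower (blue, to the left) in the Nkx2.2 RA group than in the wild type RA group, in % of members tested (horizontal axis), for the 44 lists with 5 or more members tested. Dashed lines stand at the share of all genes tested, 8.84% higher and 9.16% lower. The 4 shorter lists of serotonin and hedgehog genes are left out.

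Receptors and channels changed in both directions. Of 30 ionotropic transmitter receptors 8 rose (9 without replicate 3 of both groups) and 5 fell. Gabrb1, a GABA-A receptor subunit, read 5.48, 5.57 and 3.73 on the Nkx2.2 RA arrays, against 0.19, -0.72 and -0.43 on the wild type RA arrays (log2 fold change 5.25 ± 0.58, adjusted p = 1.33e-05). Gabra2, Gabra3, Gabra4, Gabra5 and Gabrg1 rose by 1.98 to 3.06, and Gabrb2 fell by 1.43. Gria4, an AMPA receptor subunit, rose by 3.68 ± 0.49. The nicotinic subunits Chrna3 and Chrnb2 fell by 3.22 and 2.35, and Glra1, a glycine receptor subunit, by 1.19.

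Among 24 potassium channel genes 7 rose (8 without replicate 3 of both groups) and 2 fell. Kcnj3 and Kcnj9, subunits of the channel through which Htr1a acts, rose by 1.33 and 1.28, while Kcnj5 and Kcnj6 were not called. Kcna5 rose by 2.34 ± 0.47, and Kcna1 and Kcnc1, the second a channel of fast-spiking neurons, fell by 2.38 and 1.83. Over all 84 genes whose symbols start with Kcn, 11 rose and 9 fell, shares close to those of all genes. Among 23 sodium and calcium channel genes 4 rose (5 without replicate 3 of both groups) and 5 fell (4 without them). The calcium channel α2δ subunits went opposite ways: Cacna2d1 read 0.65, 1.70 and 0.25 on the Nkx2.2 RA arrays, against -3.82, -2.62 and -2.18 on the wild type RA arrays (log2 fold change 3.74 ± 0.47, adjusted p = 3.62e-05), and Cacna2d2 -2.15, -2.60 and -1.73 on the Nkx2.2 RA arrays, against 2.23, 1.31 and 2.06 on the wild type RA arrays (log2 fold change -4.03 ± 0.44, adjusted p = 1.06e-05). Of 25 monoamine and peptide receptors 3 rose, Drd1 (3.29), the noradrenaline receptor Adra1b (2.55) and Trhr (1.83), and 2 fell (1 without replicate 3 of both groups). These shares are close to those of all genes, 8.84% and 9.16%. The counts were 1 and 1 with only the 6 arrays compared, where Drd1 and Trhr had adjusted p values of 0.0571 and 0.0958.

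Genes of the neuronal cytoskeleton and of transmitter release tended to be lower in the Nkx2.2 line. Of 14 cytoskeletal and pan-neuronal genes 6 fell and none rose (1 rose without replicate 3 of both groups). Rbfox3, the nuclear marker NeuN, read -1.54, -1.66 and -1.0 on the Nkx2.2 RA arrays, against 2.24, 1.87 and 1.99 on the wild type RA arrays (log2 fold change -3.43 ± 0.42, adjusted p = 3.14e-05). Elavl3, an RNA-binding protein of neurons, read -1.94, -1.49 and -1.72 on the Nkx2.2 RA arrays, against 1.45, 1.31 and 1.26 on the wild type RA arrays (log2 fold change -3.06 ± 0.35, adjusted p = 1.82e-05). Ina, Nefm and Nefl, subunits of neurofilaments, fell by 2.65, 1.81 and 1.45, and Tubb3, the tubulin of neurons, by 1.33. Map2, Stmn2, Gap43 and Dcx were not called, with changes of -1.56 to 0.43. All 6 falls were without overlap, as were 3152 of all 3275 called genes.

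Of 21 synaptic vesicle and release genes 9 fell (7 without replicate 3 of both groups) and none rose. Cplx1, which clamps release, read -1.43, -2.47 and -1.61 on the Nkx2.2 RA arrays, against 1.42, 0.68 and 1.55 on the wild type RA arrays (log2 fold change -3.06 ± 0.55, adjusted p = 6.28e-04), and Sv2a, a vesicle glycoprotein, -0.30, -0.12 and -0.19 on the Nkx2.2 RA arrays, against 2.26, 2.09 and 2.02 on the wild type RA arrays (log2 fold change -2.33 ± 0.24, adjusted p = 8.25e-06). Vamp2 and Rab3a fell by 2.14 and 1.86 and Syp by 1.20. Snap25 and Syt1, of the same machinery, were not called (0.02 and 1.67). Of 36 axon guidance genes 15 fell and 4 rose (3 without replicate 3 of both groups). The receptors Unc5a, Plxna2, Epha4 and Robo1 changed by -3.30, -2.94, -2.64 and -2.45, and the ligand Sema3a by -3.66. Ntn1, the netrin of the floor plate, read 1.11, 1.80 and 2.61 on the Nkx2.2 RA arrays, against -3.16, -3.17 and 1.89 on the wild type RA arrays (log2 fold change 3.32 ± 1.06, adjusted p = 0.0285). Its arrays overlapped through wild type RA replicate 3, and leaving out any of 4 arrays ended the call.

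Neurotrophic factor receptors had 3 of 14 members higher (2 without replicate 3 of both groups) and 4 lower. The subunits of the CNTF receptor parted: Il6st (2.26) and Lifr (2.09) rose and Cntfr fell (-2.77). Il6st read 1.71, 1.30 and 2.23 on the Nkx2.2 RA arrays, against -2.0, -0.64 and 1.09 on the wild type RA arrays, and its adjusted p was 0.0762 without wild type RA replicate 1 and 0.16 with only the 6 arrays compared. Ngfr fell by 2.35 and Met by 2.67. Of 24 cadherins 3 rose and 2 fell, close to the background, led by Pcdh20 (2.15), Cdh6 (2.01) and Cdh10 (-2.21).

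Some markers of cells other than neurons also changed. Of 12 neural progenitor genes 5 rose and 1, Pax6, fell. Sox2 read 0.45, 0.57 and 0.70 on the Nkx2.2 RA arrays, against -1.90, -1.09 and -0.63 on the wild type RA arrays (log2 fold change 1.78 ± 0.31, adjusted p = 5.01e-04), Sox1 -0.18, 0.28 and 1.22 on the Nkx2.2 RA arrays, against -2.45, -2.14 and -2.13 on the wild type RA arrays (log2 fold change 2.68 ± 0.43, adjusted p = 2.73e-04), and Prom1, a membrane protein of progenitors and ependyma, 2.53, 2.45 and 3.69 on the Nkx2.2 RA arrays, against -1.20, -0.37 and -0.05 on the wild type RA arrays (log2 fold change 3.43 ± 0.50, adjusted p = 1.12e-04). The mean over the 12 genes overlapped between the groups, at 0.21, 0.36 and 0.92 on the Nkx2.2 RA arrays against -0.59, 0.06 and 0.26 on the wild type RA arrays. The progenitor intermediate filament Nes, whose enhancer drives the line, was not called (-0.37). Of 19 cell cycle genes none was called, and Mki67 read -0.08, 0.00 and 0.47 on the Nkx2.2 RA arrays, against -1.34, 0.09 and -0.70 on the wild type RA arrays. The part of progenitors in the lower neuronal genes was not tested.

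Motile cilium genes rose in 6 of 10 cases and fell in none, with a median change of 2.2 log2 units. Cfap126 read 4.11, 4.24 and 5.38 on the Nkx2.2 RA arrays, against -0.36, 0.03 and -0.10 on the wild type RA arrays (log2 fold change 4.72 ± 0.60, adjusted p = 4.16e-05), Dnah9, a dynein heavy chain of the axoneme, 3.74, 3.58 and 4.83 on the Nkx2.2 RA arrays, against -0.03, -0.08 and 0.00 on the wild type RA arrays (log2 fold change 4.08 ± 0.49, adjusted p = 2.25e-05), and Tekt1, a filament protein of its microtubules, 2.67, 2.67 and 4.52 on the Nkx2.2 RA arrays, against -0.06, -0.13 and 0.05 on the wild type RA arrays (log2 fold change 3.33 ± 0.39, adjusted p = 2.04e-05). Foxj1, the master factor of motile cilia, read 1.78, 2.17 and 4.25 on the Nkx2.2 RA arrays, against -0.03, 0.82 and 1.72 on the wild type RA arrays (log2 fold change 1.90 ± 0.59, adjusted p = 0.0257). Replicate 3 was the highest of the Nkx2.2 RA arrays for all 4. Dnah5 and Spag6 were at their medians on all 6 arrays. Over the 48 genes whose symbols start with Cfap, Dnah, Drc, Rsph or Tekt, families chosen after values of cilium genes had been seen, 21 rose and none fell.

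The promoters of Tekt1 and Ccdc39 (log2 fold change 2.86 ± 0.37), a ruler protein of the axoneme, are shown because they hold the letters read by RFX factors, partners of Foxj1. They are RefSeq's for GRCm38.p6, at chr11:72361833-72362132, minus strand (Tekt1, the first of 2 listed) and chr3:33844261-33844560, minus strand (Ccdc39), from 250 bases before to 50 after the start. Capitals mark GTTGCNA, a half-site of RFX factors, at position -15 in Tekt1 and 18 in Ccdc39.
Tekt1: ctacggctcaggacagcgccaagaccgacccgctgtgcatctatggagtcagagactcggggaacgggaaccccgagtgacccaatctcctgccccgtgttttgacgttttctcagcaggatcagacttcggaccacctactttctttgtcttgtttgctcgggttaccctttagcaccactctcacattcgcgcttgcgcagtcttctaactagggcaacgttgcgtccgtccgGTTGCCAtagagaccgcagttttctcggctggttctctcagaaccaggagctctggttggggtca
Ccdc39: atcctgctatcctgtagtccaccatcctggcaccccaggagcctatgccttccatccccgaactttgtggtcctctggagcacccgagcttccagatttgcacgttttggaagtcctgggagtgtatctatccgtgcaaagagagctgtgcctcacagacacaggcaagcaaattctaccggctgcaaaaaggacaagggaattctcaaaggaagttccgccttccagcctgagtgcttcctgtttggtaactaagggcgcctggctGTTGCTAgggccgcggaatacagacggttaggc

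Both strands were searched for GTTGCNA. It was in 2 of the 4 promoters of called cilium genes on hand, and in 10.1% of all 14452 promoters. It was in 14.2% of the 1280 promoters of genes that rose and in 7.66% of the 1344 of genes that fell.

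Of 9 astroglial genes 3 rose and 1 fell. Aqp4, the water channel of astrocytes and ependyma, read 3.46, 4.77 and 5.12 on the Nkx2.2 RA arrays, against -0.23, 0.00 and 0.63 on the wild type RA arrays (log2 fold change 4.31 ± 0.44, adjusted p = 6.42e-06), and Fgfr3 rose by 2.34 ± 0.61. Aldh1l1 was called higher (2.02 ± 0.65), but without wild type RA replicate 1 its adjusted p was 0.173. Slc1a2 fell, and Gfap and S100b were not called (-0.41 and 0.04). The mean over the list was 1.27, 1.19 and 1.39 on the Nkx2.2 RA arrays against -0.39, 0.21 and 0.70 on the wild type RA arrays. Mbp (3.47) and Cnp (2.22) of the 8 oligodendrocyte genes rose, while Mag, Mog, Mobp, Sox10, Pdgfra and Cspg4 were not called, with changes of -0.46 to 0.02. The 8 probe sets of Mbp ranged from -2.04 to 3.77.

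No gene of microglia and blood (9 tested) or endothelium (8 tested) was called. Mesenchymal genes had 1 call of 10, Prrx1 (-2.71), which was lost without replicate 3 of both groups. The mean over that list was 0.67, 0.22 and 1.44 on the Nkx2.2 RA arrays, against -0.10, 3.19 and 2.38 on the wild type RA arrays, where Col1a1 read 0.37, 4.11 and 3.65. Replicates 2 and 3 of the wild type RA group were therefore high in mesenchymal genes. Of 10 endodermal genes Foxa2 and Sox17 rose, and only Foxa2 without replicate 3 of both groups. Sox17 read 3.50, 0.14 and 4.33 on the Nkx2.2 RA arrays, against -0.03, -0.03 and -0.03 on the wild type RA arrays, and Ttr, also made by choroid plexus, 4.71, -0.03 and 5.54 on the Nkx2.2 RA arrays, against -0.16, -0.17 and -0.17 on the wild type RA arrays, with Nkx2.2 RA replicate 2 low for both. Of 10 neural crest and sensory neuron genes 3 fell, all of them also interneuron or motor neuron factors (Foxd3, Isl1 and Pou4f1), and Eya1 rose (1.71). Of 11 pluripotency genes only Esrrb fell, at -0.14, -0.13 and -0.27 on the Nkx2.2 RA arrays, against 4.75, 5.57 and 4.12 on the wild type RA arrays (log2 fold change -4.99 ± 0.35, adjusted p = 1.57e-07), and Pou5f1 and Nanog were near their medians (0.02 and 0.01). The part of other cell types in the changes above was not tested.

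Among the 10 largest rises without overlap of arrays, 6 were the serotonin genes Ddc, Slc6a4, Gch1, Tph2, Gchfr and Maob. The others were Ptger3, Smpdl3a, Irs4 and Slc15a2. Ptger3, a prostaglandin receptor, read 6.36, 6.43 and 4.85 on the Nkx2.2 RA arrays, against -0.62, -0.21 and 0.00 on the wild type RA arrays (log2 fold change 6.16 ± 0.69, adjusted p = 1.43e-05). Irs4, an insulin receptor substrate, read 3.37, 2.93 and 1.81 on the Nkx2.2 RA arrays, against -2.70, -3.17 and -3.76 on the wild type RA arrays (log2 fold change 5.91 ± 0.85, adjusted p = 1.07e-04). Smpdl3a, a phosphodiesterase of the sphingomyelinase family, read 5.30, 5.28 and 6.69 on the Nkx2.2 RA arrays, against -0.75, -0.15 and -0.12 on the wild type RA arrays (log2 fold change 6.10 ± 0.71, adjusted p = 1.97e-05), and Slc15a2, a peptide transporter, 5.11, 5.32 and 5.21 on the Nkx2.2 RA arrays, against -1.42, -0.92 and 0.76 on the wild type RA arrays (log2 fold change 5.74 ± 0.58, adjusted p = 6.12e-06). The change of Slc15a2 was -0.30 on the probe set left when those with a name suffix were set aside.

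The largest falls were Lamp5 (-8.95), Sst, Skor1, Lhx1, Mab21l2, Hoxb9, Zic1, Lbx1, Gbx2 and Mab21l1, from -8.95 to -7.03. Lamp5, a membrane protein of inhibitory neurons, read -0.42, -0.80 and -0.47 on the Nkx2.2 RA arrays, against 8.69, 8.50 and 7.97 on the wild type RA arrays (log2 fold change -8.95 ± 0.66, adjusted p = 2.47e-07).

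A comparison of the same line and wild type cells under FGF8, a factor that gives a more anterior position, shares no array with that under RA. Both its groups are of day 10 and name SHH in their titles. Its groups differ in a hybridization control, bioC, which fell into 2 apparent batches: all 3 Nkx2.2 FGF8 arrays lie in the batch of the RA arrays, against 1 of 3 wild type FGF8 arrays, with bioC at -2.21 and -1.81 on wild type FGF8 replicates 1 and 2. Under FGF8 514 genes rose (2.83% of those tested) and 311 fell (1.71%). With the batch as a block the counts were 436 and 229, and within the batch of the RA arrays, where 1 wild type FGF8 array is left and is taken to vary like the others, 250 and 399. Of the genes that rose under RA 324 also rose under FGF8, which is 20.15% of the first list and 63.04% of the second. Of those that fell 189 also fell, 11.34% of the RA list and 60.77% of the FGF8 list, while 4 genes rose under RA and fell under FGF8 and 5 did the reverse. Ddc, Slc6a4, Tph2, Gch1, Gchfr and Maob changed by 6.10, 7.97, 7.19, 6.79, 6.48 and 5.68 under FGF8. Their changes under RA minus those under FGF8 were 1.17, -0.85, -0.18, 0.29, 0.25 and 0.70, and none of these differences was called.

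The difference between the changes under RA and under FGF8 was tested as an interaction. In it RA also carries the 2 days between its groups and possibly a difference in SHH. It was called higher for 323 genes (1.78%) and lower for 473 (2.6%). These counts moved with single arrays: without wild type FGF8 replicate 2 they were 834 and 682, and without wild type FGF8 replicate 1 they were 171 and 233. With the bioC batch as a block they were 234 and 342, and within the batch of the RA arrays 509 and 475, of which 145 and 284 were among those called with all arrays. Of the 51 named genes with a called difference, 46 held with the block and 31 within the batch, and all 51 kept their direction. No gene of serotonin synthesis, cofactor or breakdown was called. Slc29a4 and Htr2c were called lower, with differences of -2.38 and -3.15, the second lost within the batch of the RA arrays (adjusted p = 0.149).

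Hox genes, inhibitory transmitter genes and interneuron factors were among the genes that differed. Hoxa4 and Hoxd3 fell under RA by 6.44 and 6.71 and changed under FGF8 by -0.01 and -0.61 (differences -6.43 and -6.10, adjusted p = 2.61e-05 and 6.30e-07). Of 6 Hox genes of groups 4 and 5, the interaction was called for 3. It was called for 3 of 6 GABA and glycine genes, which had 4 falls under RA and 0 calls under FGF8. Slc32a1 averaged 3.32 in the Nkx2.2 line and 3.93 in wild type cells under FGF8, so both FGF8 groups were above their median, unlike the Nkx2.2 RA arrays. Of 17 dorsal and intermediate interneuron factors the interaction was called for 9, and 10 of the 17 fell under FGF8. Gata3 rose under FGF8 (3.67 ± 0.65) and was not called under RA, but the difference itself was not called (-3.05, adjusted p = 0.0656), except within the batch of the RA arrays (-3.79, adjusted p = 0.0365).

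On the higher side, Anxa1, a calcium-dependent membrane protein, rose under RA (5.44 ± 1.07) with -0.64 ± 1.07 under FGF8 (difference 6.09, adjusted p = 0.0302). That call was lost on leaving out any of 8 arrays, with the adjusted p at 0.0505 to 0.0728. Kcnj16, a potassium channel of astrocytes and epithelia, read 4.93, 5.41 and 5.78 on the Nkx2.2 RA arrays, against -0.08, -0.08 and -0.06 on the wild type RA arrays, and changed by 0.27 ± 0.35 under FGF8 (difference 5.17, adjusted p = 2.29e-05). Lrp2, an endocytic receptor of the neuroepithelium, rose by 4.47 ± 0.85 under RA (difference 5.17, adjusted p = 0.0227), and the call of that difference was lost on leaving out any of 4 arrays, at adjusted p values of 0.0519 to 0.0672. Among 10 cilium genes 6 rose under RA and 1, Dnah9, under FGF8, and the interaction was called for 3. Lhx9 was at its median on all RA arrays, and its difference of 5.85 came from a fall under FGF8 alone.

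**Figure D5:**
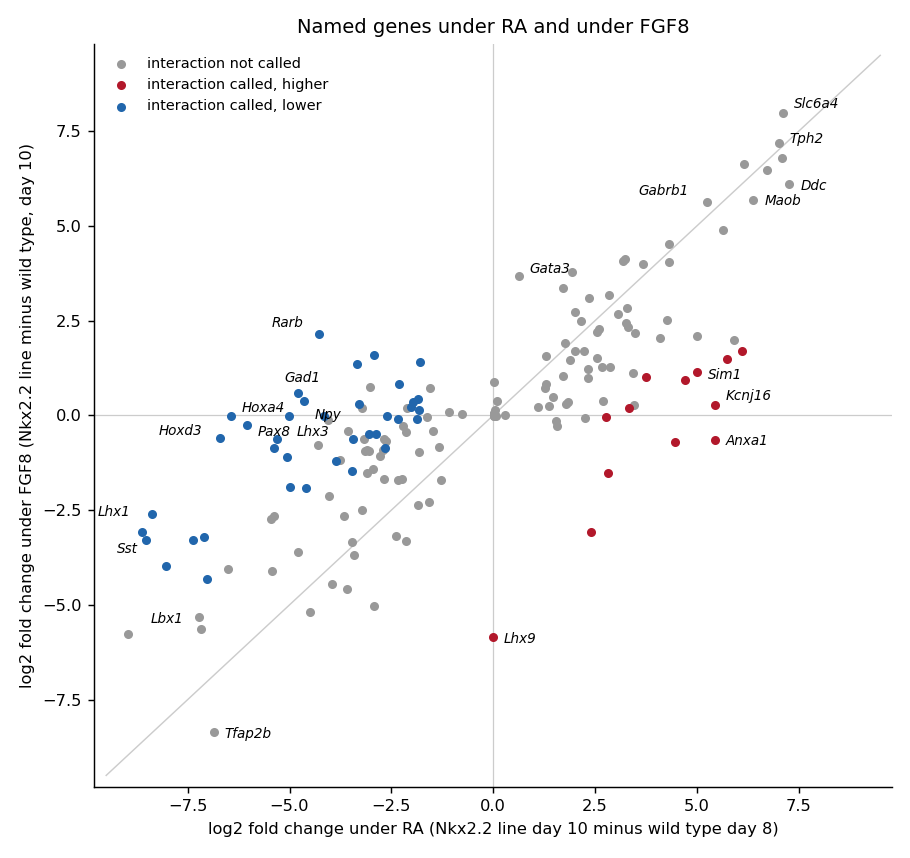
Log2 fold change of the 171 named genes under RA (horizontal axis, Nkx2.2 line at day 10 minus wild type at day 8) and under FGF8 (vertical axis, Nkx2.2 line minus wild type, both at day 10), with the line of equal change. Points are red or blue where the interaction was called higher or lower and grey elsewhere. Ddc, Tph2, Slc6a4 and Maob lie near the line, and Hoxd3, Hoxa4, Pax8 and Lhx3 lie far left with little change under FGF8.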

How the data were processed

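The assay was hybridization to 21 Affymetrix mouse arrays, 3 for each of 7 groups, of biotinylated cRNA, for which 2 ug total RNA was taken per the labels. The deposited values are log2 signals. The authors made them with GCRMA (version not stated), per the submitters' processing notes. The values show that each probe set was also centred on its median over 27 arrays: no probe set has over 13 values above 0 or over 13 under it, and an exact 0 occurs in 79.24% of them. The 6 other arrays behind that median were not used here. Centring keeps differences between arrays and removes each gene's level, so signal over background cannot be read, and the number of arrays limits the precision.

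Of 45101 probe sets, 64 controls, 932 with several symbols and 9160 unnamed here were set aside. The 34945 with 1 symbol gave 18193 genes. Several probe sets were on hand for 9010, and the one with the highest SD on these arrays was kept. The model was fitted in limma 3.58.1 (R 4.3.3, statmod 1.5.0) to all 21 arrays, 1 mean per group, followed by contrasts and empirical Bayes moderation (eBayes), with 14 residual and 1.11 prior degrees of freedom. A standard error thus reflects the spread in all groups. It is too small for a gene that is flat in most groups but spread in wild type RA, such as Lhx3, Pax8 and Hoxd3. With only the 6 arrays compared their adjusted p values were 7.58e-04, 0.00437 and 0.00182. Replicates are labelled biological, and p-values measure the spread between these samples. Both groups under RA lie in 1 of 2 apparent batches of the bioC hybridization control, which the labels do not name, while wild type FGF8 arrays lie in both.

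The 48 lists hold 647 genes, of which 590 were tested. Members, lists and rules were chosen with earlier results of these data known, so list counts are descriptions. The named genes are the serotonin list members, up to 4 called members of every other list with the largest changes, the 10 largest rises and falls without overlap of arrays, and the 5 largest interactions each way. Other list members given with values, and the cilium gene families, were chosen after their values were seen. Replicate numbers did not pair the arrays: residuals of same-numbered arrays correlated at 0.28, -0.29 and 0.10 between the 2 groups. On simulated data for the comparison under RA over 18193 genes, the test recovered 46.3%, 61.7% and 87.4% of changes of 1.5, 2 and 3 log2 units. Of its calls 2.99% were false, and a comparison without changes gave 0 calls. The simulated noise was normal, independent between genes and equal in all groups, and 200 changes were set among genes of above-median spread. The real arrays differ in this, as replicate 3 stood apart, so these rates check the code and do not give error rates of the results. Promoters were matched by symbol, for 14452 of the genes tested.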

Additional observations from a re-analysis of the deposited data

Results flagged for a closer look

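For 51 named genes the change from wild type to the Nkx2.2 line under RA differed from that under FGF8 by limma's interaction term (Benjamini-Hochberg adjusted p under 0.05 and a difference of 1 log2 unit or more). Each value is the log2 fold change under RA minus that under FGF8. Under RA the groups also differ by day, which was not tested apart.

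Among Hox genes the difference was -2.65 for Hoxa3, -6.10 for Hoxd3, -6.43 for Hoxa4, -3.95 for Hoxb5, -2.69 for Hoxc6, -4.07 for Hoxb9 and -4.12 for Hoxa10. Among factors of neuron classes that were lower it was -5.79 for Lhx1, -5.78 for Pax8, -5.23 for Skor1, -4.98 for Lhx3, -4.70 for Tbx3, -4.06 for Mab21l2, -3.89 for Gbx2, -3.23 for En1, -2.72 for Mab21l1, -2.59 for Foxd3, -2.28 for Isl1 and -2.01 for Evx1. Among genes of inhibitory transmission, peptides and serotonin receptors and transport it was -5.55 for Sst, -5.38 for Gad1, -5.02 for Npy, -4.69 for Slc32a1, -4.52 for Slc6a5, -4.51 for Tac1, -3.15 for Htr2c, -2.38 for Slc29a4 and -2.32 for Tacr3. Among pan-neuronal, synaptic, channel and guidance genes it was -3.59 for Unc5a, -2.82 for Rbfox3, -2.57 for Elavl3, -2.24 for Sv2a, -1.97 for Kcnc1, -1.80 for Ina and -1.76 for Rab3a. Other genes with a negative difference were -6.42 for Rarb, -3.12 for Esrrb and -2.24 for Smad7.

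Factors with a positive difference were 5.85 for Lhx9, 4.35 for Olig3, 3.85 for Sim1 and 2.80 for Olig1. Cilium genes were 3.78 for Cfap126 and 3.13 for Tekt1. The remaining genes were 6.09 for Anxa1, 5.47 for Cnmd, 5.17 for Kcnj16, 5.17 for Lrp2, 4.41 for Smpdl3a, 4.26 for Slc15a2 and 2.73 for Cacna2d1. Cnmd was uneven in the Nkx2.2 line under RA, at 1.56, -0.39 and 4.30, against -0.41, 0.03 and -1.35 in wild type cells, and was not called there. Lhx9 was not called under RA (0.00) and fell under FGF8 (-5.85).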

How the results depend on the processing

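The 3-array groups, the shared error and the choice of 1 probe set per gene limit what can be read from single genes. The alternatives planned for the 2 counts under RA kept both within 1.5 times the 1608 rises and 1667 falls, at 1083 to 1986 and 1216 to 2074. Without 1 of the 6 arrays the counts ran from 1303 to 1757 rises and from 1380 to 1813 falls. With the replicate block they were 1595 and 1670 under RA and 300 and 467 for the interaction, and no fit used the numbers as pairs otherwise. The interaction, with 323 genes higher and 473 lower, was less stable. It gave 189 higher with only the 12 arrays of its 4 groups, 94 higher and 141 lower at an adjusted p under 0.01, and 1888 and 1614 with array weights, whose estimation stopped before it converged. Leaving out 1 array gave 169 to 834 higher and 233 to 682 lower. Leaving out replicate 3 of both RA groups, chosen after seeing the data, gave 642 and 638, and within the bioC batch of the RA arrays, also chosen after seeing the data, 509 and 475. The cause was not tested.

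Of 3027 alternative values of the named genes, 2840 kept their direction and side of the threshold, 185 lost the call and 2 turned sign. Both turned with probe sets without a name suffix only, another probe set by construction: Hoxa10 at 0.0117 and Slc15a2 at -0.30. Of 155 named genes called under RA, 120 held with only the 6 arrays compared, 135 without each of those arrays in turn, and 142 without replicate 3 of both groups.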
